A study of Mus musculus with 24 samples.

Results

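The nuclear genes of oxidative phosphorylation were followed in granulosa cells and oocytes of cultured mouse follicles. Genes were taken by symbol: the subunit names of complexes I to IV (Nduf, Sdh, Uqcr and Cox names), the Atp5 names of ATP synthase, and the 2 cytochromes Cyc1 and Cycs. Of 109 matching names, 15 marked as pseudogenes and 8 under 1 CPM (a count scaled to a fixed library total, the usual counts-per-million unit) on average in both cell types were dropped. The 86 that stayed, of 78298 genes in the tables, comprised 39 subunits of complex I, 4 of complex II, 9 of complex III, 15 of complex IV, the gene of cytochrome c and 18 of ATP synthase. Above 1 CPM in both cell types were 83 of them. Cox7a1 passed in granulosa cells only, and Cox6a2 and Ndufb11b in oocytes only. At the limit, Cox7a1 was just inside with 1.12 CPM in granulosa cells and Cox8c just outside with 0.787 CPM in oocytes. The naming rule does not take in Cox4i1, Cox4i2 and the testis cytochrome c gene Cyct.

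Oxidative phosphorylation is the route by which mitochondria turn the electrons of NADH and succinate into ATP. Complex I takes electrons from NADH and complex II from succinate, complex III passes them to cytochrome c, and complex IV gives them to oxygen. Complexes I, III and IV pump protons across the inner membrane, and ATP synthase uses the return of those protons to make ATP. Most subunits are encoded in the nucleus and imported, while a small set is encoded in mitochondrial DNA. In the ovary, the growing oocyte takes up pyruvate that granulosa cells supply and relies on its mitochondria for ATP, whereas granulosa cells also run glycolysis actively.

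The follicles were wild type (WT), were held in alginate gel and grew to day 3 with follicle stimulating hormone (FSH) at 50 mIU/ml. Neither strain nor age is stated in the sources used here. The 3 conditions, which shared that medium, were control, blebbistatin at 20 µM, an inhibitor of the motor protein myosin II, and dextran at 10 kPa, a large sugar polymer that presses on the follicle from outside. Only follicles that had passed 180 µm were used, and a library held 1 or 2 oocytes or a small sample of granulosa cells. Each of the 6 groups had 4 libraries, which the labels call biological replicates without saying whether animals or cultures were separate. The p-values measure only the spread between these libraries, which may be technical.

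Library totals were 16432298 to 22431013 counts in granulosa cells and 14244103 to 18399551 in oocytes, and each list of values below runs from replicate 1 to replicate 4. The 12 oocyte markers summed to 16001 to 27072 CPM in oocyte libraries and to at most 14.7 CPM in granulosa cell libraries. Oocyte control replicate 2 stood apart with 1513 CPM of Inha, the granulosa gene of the inhibin alpha chain, or 9.02% of the granulosa cell control mean. Oocyte control replicate 1 had 1.69% and oocyte blebbistatin replicate 1 had 1.24%, and the other 9 oocyte libraries had at most 0.320%. In granulosa cells under blebbistatin, replicates 1 and 2 held 374 and 647 CPM of the macrophage gene Lyz2. The 11 markers of theca, stroma and smooth muscle summed to 400.4 to 1573 CPM in that group and to 25 to 383 CPM in control. The 10 granulosa markers summed to 17116 to 22468 CPM under blebbistatin and to 25757 to 33294 CPM in control, without overlap. In bulk libraries, fewer cells of a type and less RNA per cell cannot be told apart.

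Promoters of 4 of these genes are shown as examples: Cox6a1 and Uqcrc1, both lower in oocytes, Ndufb11, higher in oocytes, and Ndufs4, the gene of the set with the smallest p under blebbistatin in granulosa cells. Each is the 300 bases that RefSeq places from 250 before to 50 after the gene's start, read on the gene's strand in GRCm38.p6. The counts were made on another build, GRCm39, so these positions apply to the RefSeq table only. Capitals mark matches, on either strand, to 4 motifs bound by factors known for genes of the respiratory chain or for general promoters: NRF1 (GCGCA, any base, then GCGC), ETS factors such as GABPA (CCGGAAG), YY1 (AAGATGGCG) and NFY (CCAAT).
Cox6a1, chr5:115348909-115349208, minus strand: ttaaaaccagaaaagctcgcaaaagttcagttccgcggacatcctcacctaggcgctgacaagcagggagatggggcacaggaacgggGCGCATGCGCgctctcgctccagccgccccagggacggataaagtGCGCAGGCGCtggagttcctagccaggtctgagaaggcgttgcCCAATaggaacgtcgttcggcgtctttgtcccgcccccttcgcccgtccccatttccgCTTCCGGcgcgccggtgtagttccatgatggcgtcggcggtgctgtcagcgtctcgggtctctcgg
Uqcrc1, chr9:108936398-108936697, plus strand: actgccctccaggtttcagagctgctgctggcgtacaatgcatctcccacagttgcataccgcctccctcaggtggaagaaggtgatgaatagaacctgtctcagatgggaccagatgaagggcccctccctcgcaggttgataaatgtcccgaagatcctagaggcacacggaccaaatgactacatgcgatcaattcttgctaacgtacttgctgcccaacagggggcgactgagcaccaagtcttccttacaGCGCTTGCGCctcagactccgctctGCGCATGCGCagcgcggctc
Ndufb11, chrX:20617570-20617869, minus strand: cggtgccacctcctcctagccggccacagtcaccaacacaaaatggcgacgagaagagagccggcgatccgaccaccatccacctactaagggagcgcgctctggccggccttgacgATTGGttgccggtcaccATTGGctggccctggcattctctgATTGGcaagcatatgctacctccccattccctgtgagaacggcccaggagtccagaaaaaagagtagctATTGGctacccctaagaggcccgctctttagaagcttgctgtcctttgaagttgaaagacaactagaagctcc
Ndufs4, chr13:114388045-114388344, minus strand: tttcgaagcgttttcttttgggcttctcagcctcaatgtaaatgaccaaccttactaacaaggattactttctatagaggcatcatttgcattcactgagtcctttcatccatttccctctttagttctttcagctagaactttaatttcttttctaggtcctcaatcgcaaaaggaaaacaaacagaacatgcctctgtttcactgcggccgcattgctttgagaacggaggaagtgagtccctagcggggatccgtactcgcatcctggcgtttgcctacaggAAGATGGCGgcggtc
Cox6a1 held 2 NRF1 matches, 1 ETS match and 1 NFY match, Uqcrc1 held 2 NRF1 matches, Ndufb11 held 4 NFY matches, and Ndufs4 held 1 YY1 match close to its start.

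Of the 86 genes, 69 matched the RefSeq table by symbol or synonym, with 74 promoters among 32851. The NRF1 letters stood in 24.3% of these 74 promoters against 4.60% of all promoters. The ETS letters stood in 21.6% against 8.86%, and the YY1 letters in 9.46% against 1.4%. The CCAAT letters, at 40.5% against 37.4%, and the TATAAA letters, at 8.11% against 13.6%, were closer to the shares of all promoters. The ETS and YY1 letters can overlap by 3 bases. The median difference between oocytes and granulosa cells was -1.18 on the log2 scale for the 17 genes with an NRF1 match and -1.02 for the 52 without. Of genes named below as higher in oocytes, Sdhd and Ndufb4 held an NRF1 match, while Ndufb1, Ndufb11 and Cox5a did not. A match is a description of the letters and no test of binding.

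The 86 genes together took a larger share of the counts in granulosa cells than in oocytes. In control follicles they summed to 20960.1 ± 767 CPM (SD, n = 4) in granulosa cells and to 8625 ± 409 CPM in oocytes, or 2.10% and 0.863% of all counts. The lowest granulosa cell library of the 12 held 16007 CPM and the highest oocyte library 9183 CPM, so no library of one cell type reached the other. The make-up of the sum differed as well. ATP synthase gave 35.5% of these counts in granulosa cell controls and 29.2% in oocyte controls. Complex I gave 30.8% and 38.1%, and complex II 5.55% and 8.72%. Complex III gave 11.9% and 9.68%, and complex IV 14.5% and 12.3%. These shares are of counts and are not scaled by transcript length.

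**Figure D1:**
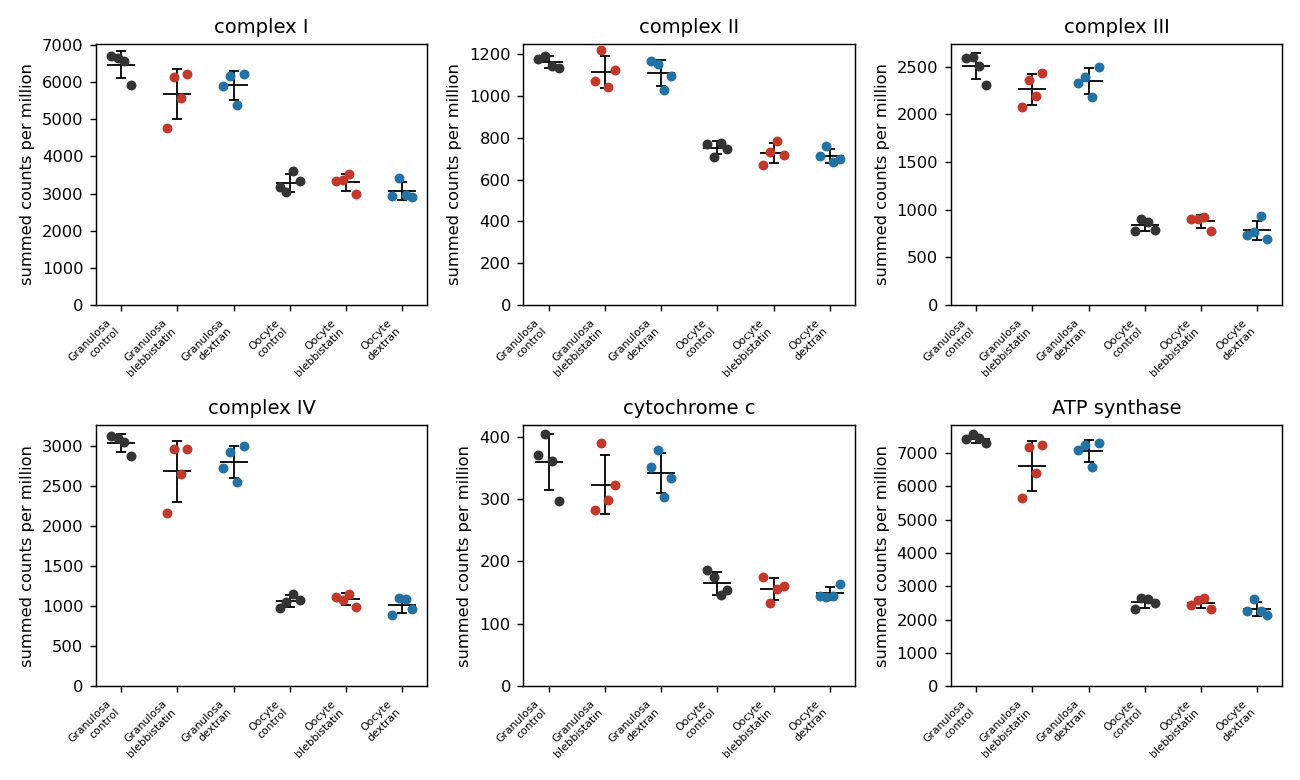
Summed CPM of the genes of each complex (vertical axes, from 0) in the 6 groups (horizontal axis), with 1 point per library, the group mean as a line and the SD as a bar. In all 6 panels the 12 granulosa cell libraries lie above the 12 oocyte libraries, and each treated group overlaps with its control except for ATP synthase in granulosa cells under blebbistatin, where all 4 libraries lie under the controls.

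The typical spread between replicates was smaller for these genes than over all expressed genes, which were not matched to them by expression level. In granulosa cell controls the median coefficient of variation was 7.76% over the 82 genes of the set with at least 5 CPM, against 15.0% over all 10221 such genes. In oocyte controls it was 14.1% against 17.2%. Ndufa4 varied most there, with 95.6%.

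In control follicles, most of these genes were lower in oocytes than in granulosa cells. With edgeR's quasi-likelihood test and Benjamini-Hochberg adjustment over 20601 genes, 63 of the 86 were lower and 7 higher at an adjusted p under 0.05. Of all genes tested, 34.3% were lower and 43.5% higher. Cox6a2 and Ndufb11b passed the 1 CPM limit in oocytes only and Cox7a1 in granulosa cells only, so their direction follows from how they entered the set. Alternatives, among them the 83 genes above 1 CPM in both cell types, gave 67 to 73 calls over both directions. The median difference was -1.03 on the log2 scale for the 86 genes and 0.32 for all genes tested. Among the 7841 genes that averaged 20 CPM or more over all libraries, 40.0% were lower and the median was 0.15. In the 81 genes of the set above that level, 62 were lower and the median was -1.08. At an unadjusted p under 0.05, 64 were lower and 7 higher, against 35.1% and 44.1% of all genes. Groups did not overlap for 66 genes in the lower direction (37.5% of all genes tested) and for 4 in the higher direction (40.2%).

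Fitted differences between cell types include scaling factors that the printed CPM do not, so a fitted value near 0, such as that of Ndufv1 or Sdhc below, can lie on the other side of 0 in CPM. This scaling moved the median of all genes from 0.06, with no scaling beyond the library total, to 0.48, with RLE scaling, and the count of lower genes from 66 to 60. Set against that median, the 86 genes stood at -1.35, and at -1.34 under both other scalings. Without the 3 oocyte libraries richest in Inha, which was chosen after seeing the data, 60 were lower and 9 higher and the median relative to all genes was -1.18.

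**Figure D2:**
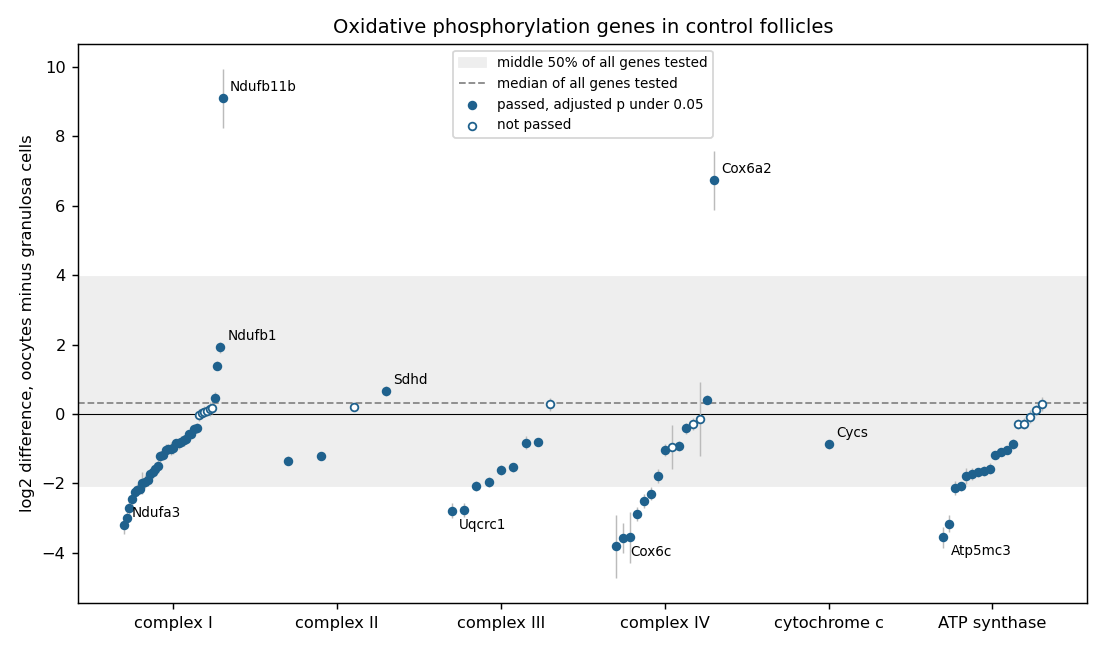
Log2 difference of oocytes minus granulosa cells in control follicles (vertical axis) for each of the 86 genes, by complex (horizontal axis), with the standard error as a bar and filled points for those that passed. The grey band holds the middle 50% of all genes tested. The fitted value of Ndufb11b, a gene without counts in granulosa cells, depends on the prior count and is no measured size.

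In complex I, 29 of 39 subunits were lower in oocytes and 4 higher, with a median of -0.98. The 7 nuclear core subunits, which form the arm that passes electrons, had a median of -0.76 and the 32 accessory subunits -0.99. Ndufs1, the largest iron-sulphur subunit, stood at 184, 183, 185 and 178 CPM in granulosa cell controls and at 17, 35.3, 22.2 and 20.6 CPM in oocyte controls. The groups lay far apart, with no oocyte value near a granulosa cell value (log2 -2.69 ± 0.21, adjusted p = 4.40e-10). Ndufv1, the core subunit that binds NADH, had 189, 197, 171 and 174 CPM and 171, 151, 182 and 150.1 CPM, groups that overlapped and a difference that did not pass (log2 0.09 ± 0.14, adjusted p = 0.542).

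Accessory subunits of complex I lay on both sides. Ndufa3 had 116, 95.1, 108 and 92.4 CPM in granulosa cells and 7.40, 15.4, 7.40 and 8.03 CPM in oocytes (log2 -3.18 ± 0.26, adjusted p = 5.56e-10). Ndufa5 had 147, 137, 129.7 and 115 CPM and 8.76, 26.3, 11.8 and 8.81 CPM (log2 -3.01 ± 0.28, adjusted p = 4.51e-09). Both were highest among oocyte controls in replicate 2, the library with most Inha. Without that library Ndufa3 stood at -3.49 and Ndufa5 at -3.49. Ndufb11, a small membrane subunit encoded on the X chromosome, went the other way, with 137, 141, 121 and 122 CPM in granulosa cells and 268, 228, 336 and 314 CPM in oocytes (log2 1.39 ± 0.13, adjusted p = 7.69e-09). Ndufb1, also a small membrane subunit, had 54.8, 46.7, 50.2 and 50.4 CPM in granulosa cells and 162, 127, 188 and 164 CPM in oocytes (log2 1.93 ± 0.16, adjusted p = 6.61e-10). For both, no oocyte library reached down to any granulosa cell library, in control or under treatment. Ndufab1, the mitochondrial acyl carrier protein that also serves fatty acid synthesis, did not pass, at 301, 311, 301 and 241 CPM and 240.4, 203, 268 and 288 CPM (log2 0.04 ± 0.14, adjusted p = 0.786).

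Ndufb4 was higher in oocytes by 0.47 ± 0.15 (adjusted p = 0.00849, edgeR), with 133, 139, 137 and 115 CPM against 146, 118, 177 and 168 CPM. With no scaling beyond the library total the difference was 0.22 and did not pass (adjusted p = 0.12). Ndufb11b had 0 counts in the 12 granulosa cell libraries and 3.55, 1.93, 2.63 and 5.51 CPM in oocyte controls. Against a floor of 3 counts over the 4 granulosa cell controls it was at least 91.0-fold higher in oocyte controls. Its level was about 1.03% of the sum of Ndufb11 and Ndufb11b per kilobase in oocytes. Estimated counts of such near copies depend on how reads were divided between them, and the strand setting is not stated in the labels.

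Complex II, which also works in the citric acid cycle, had subunits on both sides. Its catalytic subunits were lower in oocytes: Sdha, the flavoprotein, had 469.6, 499, 446 and 479.9 CPM against 171, 218, 144 and 160.5 CPM (log2 -1.20 ± 0.12, adjusted p = 7.86e-09). Sdhb, the iron-sulphur subunit, had 286, 286, 285 and 274 CPM against 94.4, 90.5, 104 and 86.7 CPM (log2 -1.34 ± 0.13, adjusted p = 6.25e-09). Of the membrane anchors, Sdhd was higher in oocytes, with 263, 263, 262 and 228 CPM against 355, 260.2, 381 and 355 CPM (log2 0.67 ± 0.14, adjusted p = 0.000242), and oocyte control replicate 2 fell among the granulosa cell values. The other anchor, Sdhc, did not pass at 0.20 ± 0.12 (adjusted p = 0.12).

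In complex III, 8 of 9 genes were lower in oocytes and the median was -1.62, the lowest of the complexes. Uqcrc1, a core protein, had 549, 594, 523 and 595 CPM in granulosa cells and 67.3, 106, 66.5 and 37.6 CPM in oocytes (log2 -2.78 ± 0.21, adjusted p = 1.91e-10). Its partner core protein Uqcrc2 had 278, 284, 275 and 279 CPM and 262, 287, 289 and 302 CPM, groups that overlapped (log2 0.29 ± 0.19, adjusted p = 0.163). Of the 2 core proteins, which sit side by side in the complex, 1 passed the test and the other did not. Cyc1, the cytochrome c1 haem protein, had 389, 377, 336 and 308 CPM and 42.2, 72.3, 35.7 and 26.1 CPM (log2 -2.76 ± 0.21, adjusted p = 2.24e-10). Uqcrfs1, the Rieske iron-sulphur protein, had 236, 240.2, 250.2 and 213 CPM and 70.5, 78.4, 62.9 and 61.3 CPM (log2 -1.54 ± 0.12, adjusted p = 5.47e-10). Cycs, the mobile carrier to complex IV, had 372, 405, 361 and 298 CPM and 185, 175, 146 and 153 CPM (log2 -0.88 ± 0.14, adjusted p = 1.19e-05).

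In complex IV, 10 of 15 genes were lower and 2 higher in oocytes, with a median of -1.03. Cox6c, an accessory subunit, had 260.4, 265, 253 and 253 CPM in granulosa cells and 14.3, 33.9, 13.5 and 11.9 CPM in oocytes (log2 -3.57 ± 0.43, adjusted p = 2.19e-07). Ndufa4, once counted with complex I and now placed in complex IV, had 223, 245, 188 and 201 CPM and 10.4, 37.5, 9.43 and 4.80 CPM (log2 -3.55 ± 0.75, adjusted p = 0.000224). Both were highest by far in oocyte control replicate 2. Without that library the differences widened to -4.02 for Cox6c and -4.44 for Ndufa4, and without the 3 Inha-rich libraries to -4.08 and -4.64. Cox5b, a zinc-binding subunit, had 230.4, 229.7, 223 and 206 CPM and 129.9, 112, 166 and 151 CPM (log2 -0.41 ± 0.15, adjusted p = 0.0171). Cox5a, its neighbour, stood at 227, 239.7, 212 and 197 CPM and 234, 206, 263 and 273 CPM (log2 0.41 ± 0.13, adjusted p = 0.00793), and it did not pass with no scaling beyond the library total (0.16, adjusted p = 0.17). Cox4i1, outside the naming rule and the main form of subunit 4, was lower in oocytes (log2 -0.90 ± 0.14, adjusted p = 5.87e-06), with 579.5 ± 18 against 259.6 ± 35.8 CPM (SD, n = 4).

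In ATP synthase, 13 of 18 genes were lower in oocytes and 0 higher, with a median of -1.38. The 5 genes of the catalytic F1 part had a median of -1.68 and the 12 of the membrane part and stalk -1.11. Atp5f1b, the catalytic beta subunit, had 1656, 1702, 1558 and 1697 CPM in granulosa cells and 402, 519, 410.0 and 404 CPM in oocytes (log2 -1.68 ± 0.13, adjusted p = 1.93e-10). Atp5f1a, the alpha subunit, had 961, 1051, 964 and 1005 CPM and 368, 464, 372 and 374 CPM (log2 -1.08 ± 0.11, adjusted p = 1.16e-08). Atp5pf, coupling factor 6 of the stalk, had 593, 602, 659.6 and 624 CPM and 40.6, 107, 42.5 and 44.3 CPM (log2 -3.16 ± 0.24, adjusted p = 1.71e-10), and it stood at -3.60 without oocyte control replicate 2. Atp5if1, which inhibits the enzyme when it runs backwards, had 254, 207, 231 and 242 CPM and 51.7, 62.8, 74.7 and 63.4 CPM (log2 -1.63 ± 0.14, adjusted p = 2.24e-09). Atp5f1e, Atp5me, Atp5mf, Atp5mc1 and Atp5pd did not pass.

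Several subunits exist as variants from separate genes, and the balance of variants differed between the cell types. These levels were divided by the median length of each gene's protein-coding transcripts in GENCODE M21, so that variants can be compared. Cox6a2, the form known from heart and skeletal muscle, had 0, 0.134, 0.0947 and 0.183 CPM in granulosa cell controls and 13, 6.25, 9.99 and 8.87 CPM in oocyte controls (log2 6.73 ± 0.84, adjusted p = 4.09e-07). Per kilobase it made up 0.017% of Cox6a transcripts in granulosa cells and 10.3% ± 4.0 (SD, n = 4) in oocytes. Cox6a1, the common form, had 518, 490.2, 489 and 506 CPM and 64, 99.5, 75 and 57.9 CPM (log2 -2.51 ± 0.21, adjusted p = 8.67e-10). Oocyte control replicate 2 had the most Cox6a1 and the least Cox6a2 of its group.

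Subunit c of ATP synthase, whose ring turns as protons pass, comes from 3 genes that encode the same mature protein with different import signals. Atp5mc3 had 593, 612, 686 and 667 CPM in granulosa cells and 40.0, 93.5, 25.6 and 25.7 CPM in oocytes (log2 -3.55 ± 0.30, adjusted p = 9.48e-10). Without oocyte control replicate 2 the difference was -4.13. Atp5mc2 had 252, 265, 255 and 239 CPM and 105, 103, 110.3 and 96.8 CPM (log2 -1.03 ± 0.12, adjusted p = 7.69e-08). Atp5mc1 had 322, 360.3, 289 and 264 CPM and 197, 177, 252 and 231 CPM, which did not overlap on this scale, but the fitted difference did not pass (log2 -0.28 ± 0.16, adjusted p = 0.115). Per kilobase, Atp5mc3 made up 64.7% ± 2.7 of the 3 transcripts in granulosa cells and 20.7% ± 11.7 in oocytes, while Atp5mc2 made up 26.9% and 51.7% and Atp5mc1 8.41% and 27.5% (n = 4). By this measure, the first place in the order passed from Atp5mc3 in granulosa cells to Atp5mc2 in oocytes. It depends on the lengths used, 2675.5 bases for Atp5mc1, 683 for Atp5mc2 and 718.5 for Atp5mc3. In CPM, without that division, Atp5mc1 was the highest of the 3 in every oocyte control.

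Cox6b2, known from testis, was 3.45% ± 2.2 of Cox6b transcripts per kilobase in granulosa cells and 12.8% ± 3.5 in oocytes (SD, n = 4), while its own level did not differ past the test (log2 -0.95 ± 0.63, adjusted p = 0.171). Within Cox7a, Cox7a2 made up 53.8% in granulosa cells and 41.6% in oocytes, and Cox7a2l, a factor for joining complexes III and IV, 45.7% and 58.3%. Cox7a1, the muscle form, was at 1.85, 2.09, 1.94 and 0.487 CPM in granulosa cells and at 0.0679, 0.0543, 0.123 and 0.120 CPM in oocytes. Ndufa4l2, a form raised by low oxygen in other cells, rested on 1 library in granulosa cell controls (0.427, 0.178, 14.7 and 0.0609 CPM) and stood at 2.44, 1.52, 2.71 and 5.22 CPM in oocyte controls. Outside the naming rule, Cyct had 0 counts in granulosa cell controls and 4.23 ± 0.97 CPM (SD, n = 4) in oocyte controls, at least 112.5-fold higher against a floor of 3 counts over the group. Cyct was 10.9% of cytochrome c transcripts per kilobase in oocytes, with lengths of 655 bases for Cyct and 3123 for Cycs. Without that division, Cycs had 165 CPM on average in oocyte controls. Cox8c, the testis form just under the limit, was at least 16.4-fold higher in oocytes by the same floor.

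**Figure D3:**
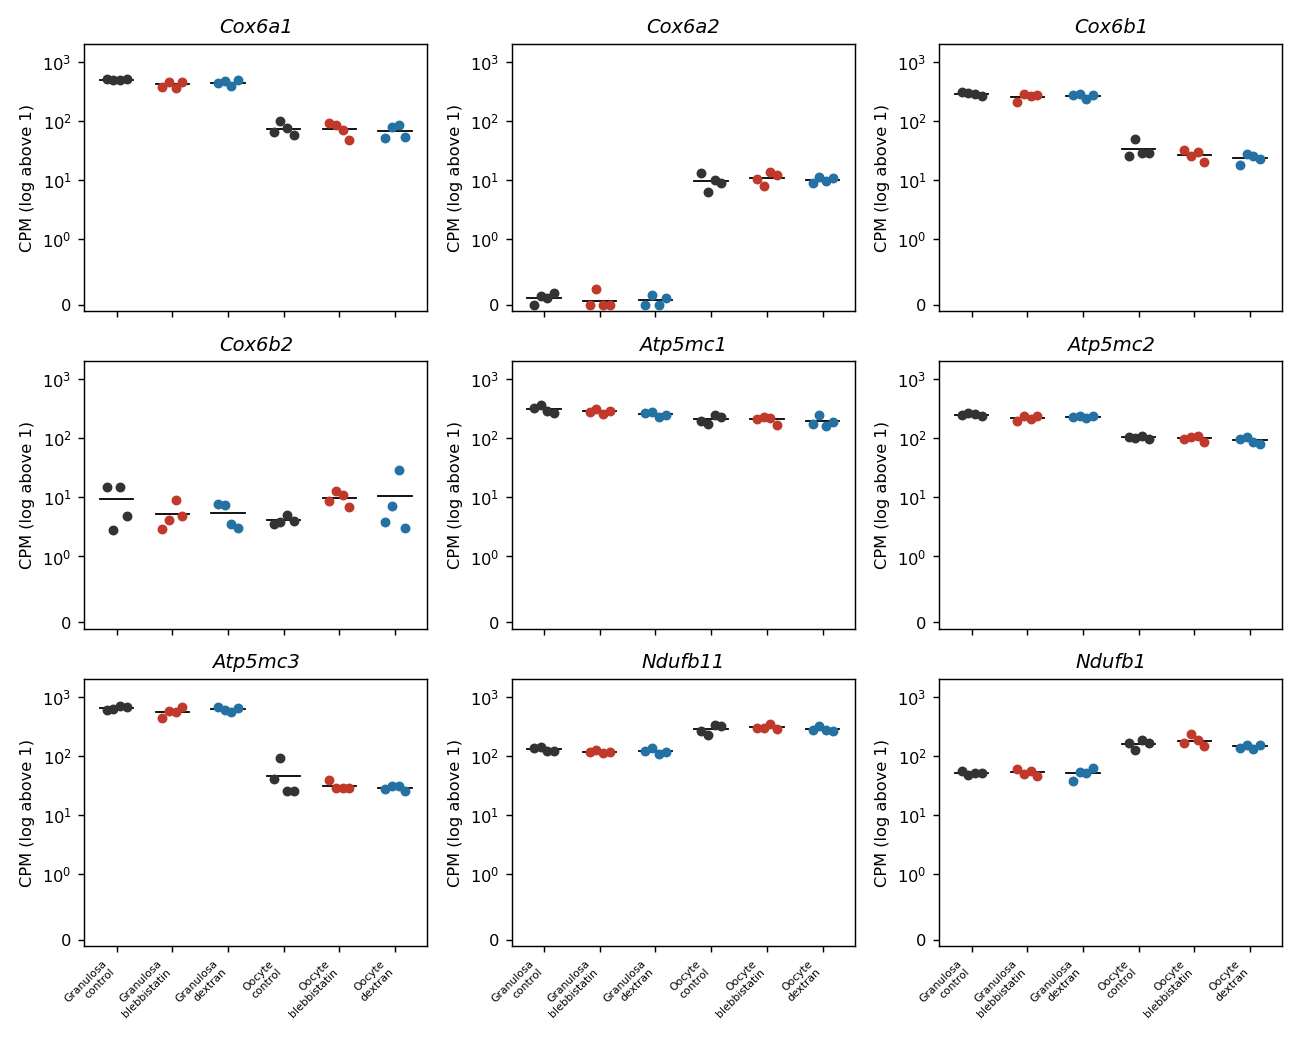
CPM (vertical axes, log scale above 1 and linear below) of 9 genes in the 6 groups (horizontal axis), with 1 point per library and the mean as a line. Cox6a2, Ndufb11 and Ndufb1 sit higher in all 12 oocyte libraries than in the 12 granulosa cell libraries, while Cox6a1, Cox6b1 and Atp5mc3 sit lower, with oocyte control replicate 2 at the top of its group for Cox6a1, Cox6b1 and Atp5mc3.

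Other genes of the same organelle differed between cell types in both directions, as did all genes tested (34.3% lower and 43.5% higher). Of 57 assembly factors tested, 27 were lower and 18 higher in oocytes, with a median of -0.36. Cox10, which makes haem for complex IV, had 35.2 ± 2.3 CPM in granulosa cell controls and 365.7 ± 49.4 CPM in oocyte controls (SD, n = 4), and Coa3, a complex IV assembly factor, 103.9 ± 9.3 and 15.7 ± 6.4 CPM. Of 78 genes of the mitochondrial ribosome, 36 were lower and 25 higher, with a median of -0.08. Of 25 genes of the citric acid cycle and pyruvate dehydrogenase, 14 were lower and 5 higher, with a median of -0.80. Of the 12 mitochondrially encoded subunits tested, all were lower in oocytes, with a median of -3.68. Their sum was 1.06 to 1.87 times that of the nuclear genes in granulosa cell controls and 0.0464 to 0.518 times in oocyte controls. Among oocyte controls, replicates 2 and 1, the libraries with most Inha, had the largest mitochondrial shares of all counts, 0.525% and 0.299%. Oocyte dextran replicate 3, the library with least Inha, had 0.317%.

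Among 20 regulators tested, 9 were lower and 9 higher in oocytes, against 34.3% and 43.5% of all genes. Gabpa, an ETS factor, had 58.5 ± 7.2 CPM in granulosa cell controls and 2.53 ± 3.30 CPM in oocyte controls (SD, n = 4). Esrra, a nuclear receptor known to drive these genes in muscle, had 1.95 ± 0.35 and 0.0799 ± 0.0870 CPM. The related receptor Esrrb had 0 counts in the granulosa cell libraries and 91.4 ± 9.7 CPM in oocyte controls. Polrmt, the RNA polymerase of mitochondria, had 22.5 ± 5.3 and 78.7 ± 12.4 CPM.

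Under treatment no gene of the set passed the test in either cell type. In granulosa cells, blebbistatin was compared with control over 15370 genes, of which 83 belong to the set. None of the 83 was higher and none lower at an adjusted p under 0.05, where 1 gene of all tested was higher (0.00651%) and none lower. At an unadjusted p under 0.05, 8 of the 83 were lower and none higher, against 5.06% and 5.36% of all genes. The estimate was below 0 for 72 of 83 genes, against 54.6% of all genes, with a median of -0.16 against -0.05. DESeq2 called 377 of the 15370 genes and 2 of the 83 in the set, Ndufs4 and Atp5pf.

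Those 2 had the smallest p in edgeR as well. Ndufs4, an accessory subunit needed to join the NADH module of complex I, had 245, 237, 264 and 245 CPM in control, 105, 184, 150.0 and 199 CPM under blebbistatin and 204, 217, 199.8 and 238 CPM under dextran. All 4 blebbistatin libraries lay under all 4 control libraries and, by under 1 CPM at the closest, under all 4 dextran libraries. The change from control did not pass with edgeR (log2 -0.61 ± 0.16, adjusted p = 0.216) and was -0.59 with an adjusted p of 0.0278 with DESeq2. Atp5pf had 593, 602, 659.6 and 624 CPM in control, 346, 526, 458 and 499 CPM under blebbistatin and 566, 583, 556 and 571 CPM under dextran. Again the blebbistatin libraries lay under both other groups. The change did not pass with edgeR (log2 -0.41 ± 0.11, adjusted p = 0.23) and was -0.39 with an adjusted p of 0.0403 with DESeq2. Ndufa11, which holds the membrane arm of complex I together, had 120.0, 117, 114 and 92.9 CPM in control and 72.1, 97.2, 77.3 and 86.2 CPM under blebbistatin (log2 -0.39 ± 0.13, adjusted p = 0.304). Groups overlapped for Ndufa11.

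Of the 83 genes, 10 had blebbistatin libraries that all lay under the controls, against 4.77% of all genes, and none lay above, against 2.11%. Among those were Ndufs4, Atp5pf, Ndufa7, Cox6a1, Ndufa12, Ndufs3, Uqcr11, Uqcrfs1 and Ndufc2. On the other side, Ndufa10 had the smallest p among the positive estimates (log2 0.20 ± 0.11, adjusted p = 0.55), followed by Uqcrb (log2 0.15 ± 0.09, adjusted p = 0.591) and Atp5if1 (log2 0.10 ± 0.10, adjusted p = 0.796). The sum over the set was 18683 ± 2048 CPM under blebbistatin (SD, n = 4), with a range of 16007 to 20292, and 19843 to 21519 in control. Blebbistatin replicate 1 was the lowest of its group for 63 of 86 genes, against 41.5% of all genes at 5 CPM or more. Without it the median was -0.06 and 61 of 83 estimates were negative. Without the 2 libraries with Lyz2, chosen after seeing the data, the median was -0.09 and 63 were negative. Blebbistatin replicate 1 also had the fewest genes detected, 14538 against 18605 to 24297 in the other granulosa cell libraries. It had the most stromal marker counts of its group, 1573 CPM. Its scaling factor in the fit on the 12 granulosa cell libraries, used for this comparison, was 1.004, within the 0.968 to 1.022 of the others. Over all 24 libraries, as used for the interactions, it was 1.305 against 1.018 to 1.208 in those. The part of these in the values was not tested beyond leaving that library out. The count of 8 lower genes at an unadjusted p under 0.05 was 17 without blebbistatin replicate 4, 13 without control replicate 4 and 4 or 5 without each other control.

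The mitochondrially encoded subunits had estimates above 0 in granulosa cells under blebbistatin and mostly below 0 in oocytes. In granulosa cells the 12 tested had a median of 0.95, and all 12 reached an unadjusted p under 0.05 but none passed after adjustment. mt-Nd5, a proton-pumping subunit of complex I, had 1279 ± 426 CPM in control and 3206 ± 1420 CPM under blebbistatin (SD, n = 4), a log2 change of 1.35 ± 0.32 (adjusted p = 0.18, edgeR). Their sum was 1.67 to 4.42 times that of the nuclear genes, against 1.06 to 1.87 times in control. In oocytes 11 of the 12 estimates were negative, with a median of -1.10, 2 of them at an unadjusted p under 0.05 and none past the test. There mt-Nd5 had 83.8 ± 61.9 CPM in control and 30.8 ± 9.2 CPM under blebbistatin (SD, n = 4), a log2 change of -1.43 ± 0.55 (adjusted p = 0.9998, edgeR). The median of the 12 in the test of the difference between cell types was -1.85, with 7 lower at an unadjusted p under 0.05 and none past the test. Polrmt in granulosa cells had 9.28 ± 2.20 CPM under blebbistatin and 22.5 ± 5.3 CPM in control, a change of -1.25 ± 0.29 that did not pass (adjusted p = 0.16, edgeR).

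With dextran in granulosa cells, none of the 83 genes passed and none of the 15370 tested did (0% in each direction). DESeq2 called 42 genes, none of the set. With edgeR at an unadjusted p under 0.05, 2 of the 83 were lower and none higher, against 1.03% and 2.37% of all genes. The estimate was negative for 71 of 83 genes, against 50.5% of all genes, with a median of -0.10 against 0.00. Without dextran replicate 3 the median was -0.04 with 58 negative, and without control replicate 2 it was -0.07 with 66 negative. Without control replicate 4, 8 of the 83 were lower at an unadjusted p under 0.05. The dextran libraries lay under all controls for 8 of the 83, against 2.66% of all genes, and above them for none, against 2.11%. The sum over the set was 18010 to 20460 CPM, overlapping with control. Ndufv3, a small subunit of the NADH module, had the smallest p (log2 -0.28 ± 0.12, adjusted p = 0.99995), followed by Atp5mc1 (log2 -0.25 ± 0.11, adjusted p = 0.99995) and Uqcr11 (log2 -0.19 ± 0.09, adjusted p = 0.99995). Among positive estimates these were Uqcrb (log2 0.12 ± 0.09, adjusted p = 0.99995), Atp5if1 (log2 0.09 ± 0.10, adjusted p = 0.99995) and Sdhc (log2 0.06 ± 0.10, adjusted p = 0.99995). Both treatments were compared with the same control libraries.

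In oocytes, blebbistatin was compared with control over 16749 genes, of which 85 belong to the set, and none passed (0% of all genes in each direction). DESeq2 called 16 genes, none of the set. With edgeR at an unadjusted p under 0.05, 2 of the 85 were higher and none lower, against 1.37% and 2.72% of all genes. Estimates were negative for 45 of 85 genes, with a median of -0.01 for the set and for all genes. Leaving out 1 library gave medians from -0.03 to 0.06, and from 0 to 4 genes higher at an unadjusted p under 0.05. The sum was 8653 ± 519 CPM under blebbistatin against 8625 ± 409 CPM in control (SD, n = 4). Cox6b2 had the smallest p, with 3.53, 3.86, 4.99 and 3.96 CPM in control and 8.75, 12.6, 10.8 and 6.99 CPM under blebbistatin (log2 1.26 ± 0.56, adjusted p = 0.99982). Its groups did not overlap, as for 1 gene of the 85 in the higher direction and 1.24% of all genes, while 2 genes, Uqcrb and Ndufc2, lay lower without overlap (1.46%). Uqcrh, the hinge protein of complex III, followed (log2 0.24 ± 0.11, adjusted p = 0.99982), then Ndufb6 (log2 0.25 ± 0.13, adjusted p = 0.99982). The negative estimates of smallest p were Uqcrb (log2 -0.33 ± 0.17, adjusted p = 0.99982), Atp5mc3 (log2 -0.56 ± 0.32, adjusted p = 0.99982) and Atp5pf (log2 -0.40 ± 0.25, adjusted p = 0.99982). Without oocyte control replicate 2, the library rich in Inha, Atp5mc3 turned to 0.03 and Atp5pf to 0.05.

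With dextran in oocytes, none of the 85 genes passed and none of the 16749 tested did (0% in each direction). DESeq2 called 4 genes, none of the set. With edgeR at an unadjusted p under 0.05, 10 of the 85 were lower and 1 higher, against 3.52% and 1.8% of all genes. Estimates were negative for 63 of 85, against 49.5% of all genes, with a median of -0.09 against 0.00. The dextran libraries lay under all controls for 6 of the 85, against 1.5% of all genes, and above them for none, against 0.884%. The sum over the set was 8031 ± 570 CPM (SD, n = 4) against 8625 ± 409 CPM in control, with overlapping ranges.

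Of these 10 lower genes, 4 belong to complex III, 4 to complex I and 2 to ATP synthase. Uqcrfs1 had 70.5, 78.4, 62.9 and 61.3 CPM in control, 65.8, 65.9, 63.6 and 54.8 CPM under blebbistatin and 53.6, 44.6, 41 and 52.6 CPM under dextran (log2 -0.47 ± 0.13, adjusted p = 0.857). The dextran libraries lay under all controls and under all blebbistatin libraries. Uqcrb, which helps form the quinone site, had 42.9, 55.8, 42 and 44.3 CPM in control and 38, 28.3, 23.4 and 37.6 CPM under dextran, without overlap (log2 -0.50 ± 0.17, adjusted p = 0.857). Uqcrc1 had 67.3, 106, 66.5 and 37.6 CPM and 48.3, 40.3, 34 and 43.4 CPM, with control replicate 4 under 3 of the dextran values (log2 -0.70 ± 0.24, adjusted p = 0.857). Cyc1 had 42.2, 72.3, 35.7 and 26.1 CPM and 30.0, 33.1, 24.4 and 27.1 CPM, with control replicate 4 under 3 of the dextran values (log2 -0.58 ± 0.24, adjusted p = 0.882). Ndufc1, a membrane subunit of complex I, had 23.4, 35.8, 24.7 and 28.4 CPM and 15.8, 22.1, 17.8 and 16.7 CPM, without overlap (log2 -0.59 ± 0.19, adjusted p = 0.857). The other lower genes at an unadjusted p under 0.05 were Atp5pf, Ndufs8, Atp5mk, Ndufb3 and Ndufa13.

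Granulosa transcripts also differed between these oocyte libraries, and their part in the values was not tested. Inha was 283, 1513, 37.2 and 12.5 CPM in oocyte controls and 23.8, 4.57, 0.754 and 39.0 CPM under dextran. The 10 granulosa markers summed to 49.9 to 2417 CPM in controls and to 30.5 to 97.2 CPM under dextran, and none of the 10 was at 0 in all 4 libraries of either group. Control replicate 2 was the highest control for Uqcrfs1, Ndufc1, Uqcrb, Uqcrc1, Cyc1 and Atp5pf, all genes higher in granulosa cells. Over the whole set it was the highest control for 29 of 86 genes, against 35.1% of all genes at 5 CPM or more. Control replicate 3, with little Inha, was the highest for 40 of 86, against 22.7%. Without control replicate 2, Uqcrfs1 stood at -0.41, Ndufc1 at -0.46, Uqcrb at -0.41, Uqcrc1 at -0.43 and Atp5pf at -0.22, and 6 of the 85 were lower at an unadjusted p under 0.05. The median without it was -0.11, with 64 estimates negative. Other single libraries moved the median the other way: it was -0.04 with 52 negative without dextran replicate 1, -0.05 with 52 negative without control replicate 3 and -0.06 with 54 negative without dextran replicate 4. It was -0.14 without dextran replicate 2, and 6 were lower at an unadjusted p under 0.05 without dextran replicate 4 or without control replicate 2. Without all 3 Inha-rich libraries Uqcrc1 stood at -0.30, Atp5pf at -0.26 and Uqcrfs1 at -0.35, and the median was -0.16 with 65 negative.

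**Figure D4:**
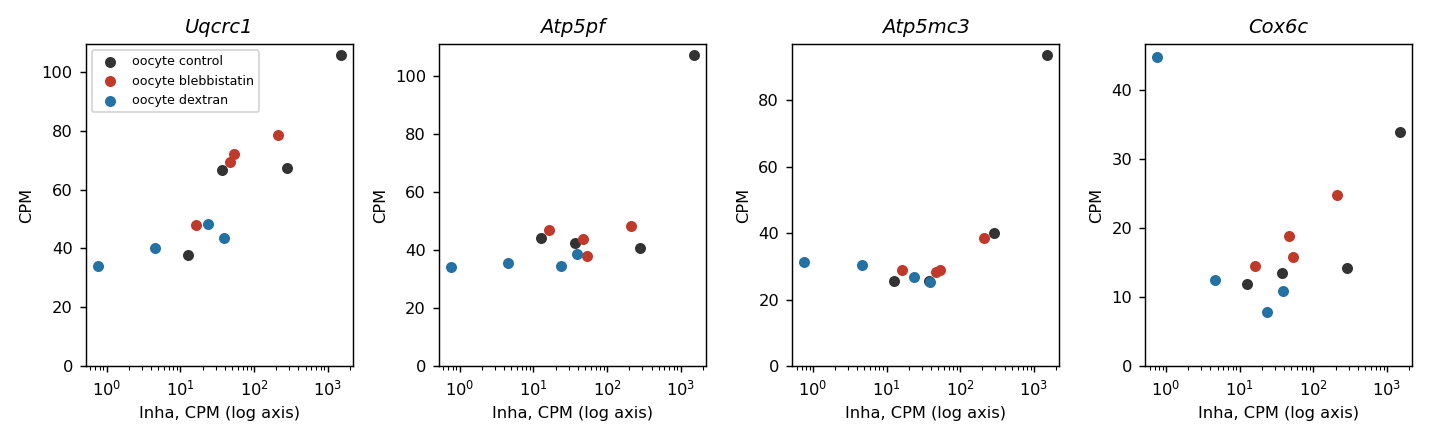
Level of 4 genes in CPM (vertical axes, from 0) against Inha (horizontal axes, log scale) in the 12 oocyte libraries, coloured by treatment. The control library with 1513 CPM of Inha is the highest point for Uqcrc1, Atp5pf and Atp5mc3, and the dextran library with the least Inha is the highest for Cox6c.

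Dextran replicate 3 stood apart in another way. It had the least Inha of all oocyte libraries, yet the most Ndufa4 (3.57, 5.66, 65.5 and 5.83 CPM over the 4 dextran libraries), the most Cox6c (7.86, 12.5, 44.8 and 11 CPM) and the most Cox6b2 (3.83, 7.20, 28.5 and 3.09 CPM). It was also the highest dextran library for Uqcrc2 (294, 296, 511 and 256 CPM) and Atp5f1b (406, 389, 511 and 352 CPM). The positive estimate of smallest p, Cox6b2 (log2 1.45 ± 0.56, adjusted p = 0.877), was accompanied by that library's 28.5 CPM, while the other 3 dextran libraries had 3.09 to 7.20 CPM and controls 3.53 to 4.99 CPM. Leaving out 1 library, the Cox6b2 estimate ranged from 0.24 to 1.76. Uqcrc2 (log2 0.30 ± 0.18, adjusted p = 0.953) and Ndufa10 (log2 0.28 ± 0.20, adjusted p = 0.973) came next, and Ndufa10 stood at -0.05 without dextran replicate 3.

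**Figure D5:**
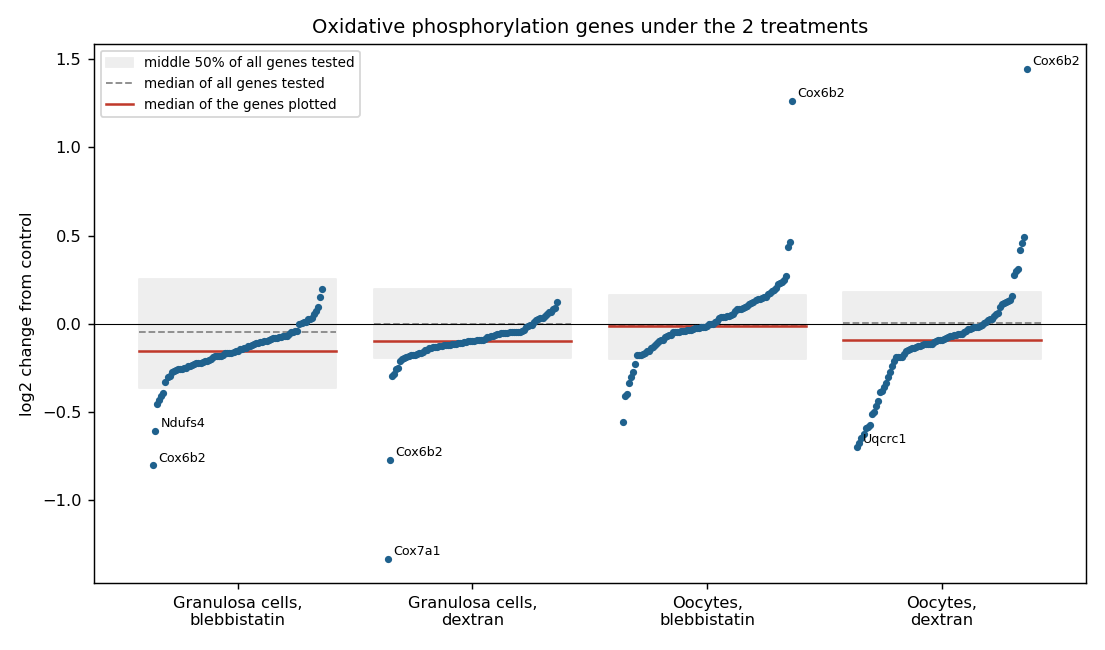
Log2 change from control (vertical axis) of the genes of the set, sorted, in the 4 treated groups (horizontal axis), with the set's median as a red line, the median of all genes tested as a dashed line and the middle 50% of all genes as a grey band. The red line lies at -0.16, -0.10, -0.01 and -0.09 from left to right, and no point passed the test.

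The treatments were also set against each other. In granulosa cells, blebbistatin against dextran gave none of the 83 genes past the test (0% of all genes), a median of -0.06 against -0.05 for all genes, and 2 genes, Atp5pf and Ndufs4, whose blebbistatin libraries all lay under the dextran libraries (3.86% of all genes), against none above (1.72%). At an unadjusted p under 0.05, 3 of the 83 were lower and 1 higher, against 4.88% and 3.96% of all genes. The median turned to 0.03 with 31 of 83 negative without blebbistatin replicate 1, and to 0.02 with 35 negative without the 2 libraries with Lyz2. The negative estimates of smallest p were Atp5pf (log2 -0.31 ± 0.11, adjusted p = 0.464), Ndufs4 (log2 -0.42 ± 0.16, adjusted p = 0.485) and Uqcrfs1 (log2 -0.21 ± 0.10, adjusted p = 0.561). Ndufa10 (log2 0.25 ± 0.11, adjusted p = 0.539), Atp5mc1 (log2 0.17 ± 0.11, adjusted p = 0.712) and Ndufs7 (log2 0.13 ± 0.09, adjusted p = 0.756) led the positive estimates. In oocytes none of the 85 passed either (0% of all genes). There 68 of 85 estimates were positive, with a median of 0.10 against 0.00 for all genes, and 8 were higher and none lower at an unadjusted p under 0.05, against 1.78% and 2.29% of all genes. Uqcrh had 115, 121, 119.7 and 112 CPM under blebbistatin and 85.7, 91.3, 87.7 and 92.5 CPM under dextran, without overlap (log2 0.35 ± 0.11, adjusted p = 0.999). Ndufc1 (log2 0.54 ± 0.19, adjusted p = 0.999) and Ndufa7 (log2 0.49 ± 0.18, adjusted p = 0.999) followed, and the negative estimates of smallest p were Ndufa10 (log2 -0.37 ± 0.20, adjusted p = 0.999), Sdha (log2 -0.20 ± 0.13, adjusted p = 0.999) and Ndufa4 (log2 -0.87 ± 0.97, adjusted p = 0.999). Without dextran replicate 3, Ndufa10 stood at -0.04 and Ndufa4 turned to 1.19. Leaving out 1 library, the median of the set ranged from 0.06, without blebbistatin replicate 3 or dextran replicate 1, to 0.19, without dextran replicate 2. Without blebbistatin replicate 4 it was 0.15, with 14 higher at an unadjusted p under 0.05. In 5 genes all blebbistatin libraries lay above the dextran libraries, against 1.84% of all genes, and in none below, against 0.961%.

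Whether a treatment acted differently in the 2 cell types was tested with an interaction term fitted to 24 libraries. For blebbistatin no gene of the 86 passed, while 13 of 20601 genes did in the higher direction (0.0631%). At an unadjusted p under 0.05, 23 of the 86 were higher in oocytes relative to granulosa cells and none lower, against 6.77% and 4.58% of all genes. The median was 0.34 against 0.12 for all genes. This count ranged from 1 to 26 over the alternatives. Without granulosa cell blebbistatin replicate 1 it was 1, with a median of 0.01 against -0.11 for all genes, and without oocyte control replicate 1 it was also 1. With RLE scaling it was 6, and without the 3 Inha-rich libraries 3. Relative to all genes the median was 0.22, and 0.05 to 0.24 over the alternatives. Uqcrh (log2 0.59 ± 0.17, adjusted p = 0.202), Ndufa7 (log2 0.67 ± 0.22, adjusted p = 0.286) and Uqcr11 (log2 0.60 ± 0.20, adjusted p = 0.297) led the positive estimates with at least 5 CPM, and Uqcrb (log2 -0.30 ± 0.19, adjusted p = 0.615) the negative ones. DESeq2 called 1 gene of the set, Ndufa4l2, which rested on the 14.7 CPM of granulosa cell control replicate 3. Among regulators, Polrmt passed in edgeR, at 1.64 ± 0.31 (adjusted p = 0.0439), with 78.7 ± 12.4 CPM in oocyte controls and 91.1 ± 5.7 CPM in oocytes under blebbistatin (SD, n = 4), where granulosa cells had 22.5 and 9.28 CPM.

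For dextran no gene passed the interaction, in the set or among all 20601 (0% in each direction). At an unadjusted p under 0.05, 2 of the 86 were higher and 3 lower, against 2.15% and 5.93% of all genes. The median was 0.08 against 0.00, but its sign depended on the setting: it was -0.10 with no filter, -0.09 with mitochondrially encoded genes removed and as low as -0.15 with 1 library left out, where all genes stood at -0.21. Relative to all genes it was 0.08, 0.01 to 0.11 with 1 library left out and -0.09 without the 3 Inha-rich libraries. Uqcrb had the smallest p among the lower estimates (log2 -0.55 ± 0.20, adjusted p = 0.422), followed by Uqcrfs1 (log2 -0.42 ± 0.17, adjusted p = 0.499) and Uqcrc1 (log2 -0.58 ± 0.28, adjusted p = 0.613). All 3 are subunits of complex III, but only 4 of its 9 genes had negative estimates, and the median of the 9 was 0.001. DESeq2 called Uqcrb, at -0.60 with an adjusted p of 0.0463, and Ndufa4l2, which again rested on 1 library. Cox6b2 led the positive estimates (log2 2.29 ± 0.89, adjusted p = 0.485). It ranged from 0.93 to 2.46 with 1 library left out, and its granulosa cell controls were split, at 15.1, 2.85, 14.7 and 4.93 CPM.

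Assembly factors, mitochondrial ribosome, citric acid cycle and regulator genes gave 0 calls for each treatment against control and between treatments. The median of the mitochondrial ribosome genes was -0.13 under blebbistatin and -0.11 under dextran in granulosa cells, with 60 and 65 of 78 estimates negative. That of the citric acid cycle and pyruvate dehydrogenase genes was -0.01 and 0.00. In oocytes under dextran the medians were -0.03 for the mitochondrial ribosome, -0.06 for assembly factors and -0.02 for the citric acid cycle and pyruvate dehydrogenase.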

How the data were processed

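The deposited tables hold estimated counts per gene from salmon, 1 table per cell type, per the labels. The submitters' processing notes name GRCm39 as the build. Version, annotation release and strand setting are not stated in the labels. The estimated counts were rounded before testing, and genes passing filterByExpr were tested with edgeR 4.0.16 (R 4.3.3), with TMM scaling and robust quasi-likelihood fits. Treatments were fitted on the 12 libraries of a cell type, and cell types and interactions on 24. Benjamini-Hochberg adjustment ran over all genes tested. Printed CPM are relative to the library total, while fitted differences also use TMM factors. DESeq2 1.42.0 and limma 3.58.1 (voom), other scalings and filters, and each library left out served as alternatives. Named genes are the 3 per direction with the smallest p in each treatment comparison at 5 CPM or more, the 6 per direction with the largest difference between cell types, fixed anchors of each complex, sets of subunit variants, and up to 2 per direction of each related list. Members and lists were chosen with earlier results of these data known. On simulated counts for the comparison of dextran with control, known changes were put into genes at 5 CPM or more. In granulosa cells 39% of 2-fold and 88% of 4-fold changes were found (15295 genes tested), and 66% and 95% in oocytes (16622 genes tested). The values of 1 anchor gene are not reported here.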

Additional observations from a re-analysis of the deposited data

Results flagged for a closer look

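In groups of 4 libraries, a library was marked where its gap to the nearest other as a share of the group's range exceeded Dixon's 95% critical value, which chance passes in about 1 of 20 groups. Of 168 groups, over 20 genes and 8 sums, 19 were marked, and none of these was weighed for a cause.

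Oocyte control replicate 2 was the highest of its group for Atp5pf with 107.3 CPM (the others 40.6 to 44.3), Cox6c with 33.9 CPM (11.9 to 14.3), Ndufa4 with 37.5 CPM (4.80 to 10.4) and Ndufa3 with 15.4 CPM (7.40 to 8.03). It also had the most Inha of the oocyte libraries, 1513 CPM. Oocyte dextran replicate 3, with 0.754 CPM of Inha, was the highest of its group for Cox6c with 44.8 CPM (7.86 to 12.5), Ndufa4 with 65.5 CPM (3.57 to 5.83) and Cox6b2 with 28.5 CPM (3.09 to 7.20).

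Oocyte blebbistatin replicate 1 was highest for Atp5mc3 with 38.7 CPM (28.4 to 29.0), and replicate 3 for Ndufb11b with 6.77 CPM (2.25 to 2.99). In granulosa cells, Sdhd was lowest in control replicate 4 with 227.6 CPM (262 to 263) and highest in blebbistatin replicate 2 with 277 CPM (221 to 229.7). Ndufa4l2 was highest in control replicate 3 with 14.7 CPM (0.061 to 0.427), in blebbistatin replicate 1 with 0.0543 CPM and in dextran replicate 1 with 0.264 CPM, where the other libraries of both treated groups had 0. Cox6a2 was 0.233 CPM in blebbistatin replicate 2 and 0 in the others of that group.

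Of the sums, complex I was lowest in granulosa cell control replicate 4 with 5929 CPM (6575 to 6705) and highest in oocyte dextran replicate 2 with 3428 CPM (2917 to 2963). Complex III was lowest in oocyte blebbistatin replicate 4 with 778 CPM (903 to 918). Cycs was highest in oocyte dextran replicate 4 with 164 CPM (143 to 145).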

How the results depend on the processing

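For oocytes against granulosa cells, the median of the set (-1.03) was -0.86 with RLE scaling, -0.86 with DESeq2 and -1.28 with no scaling beyond the library total. Relative to all genes it was -1.35, and ranged from -1.48 to -0.99. For the blebbistatin interaction the median (0.34) was 0.18 with RLE scaling, 0.084 with no filter, 0.084 with mitochondrially encoded genes removed, 0.18 with DESeq2 and 0.17 without the 3 Inha-rich libraries, and leaving out 1 library gave 0.0065 to 0.37. For the dextran interaction (0.075) it was -0.10 with no filter and -0.091 with mitochondrially encoded genes removed, and leaving out 1 library gave -0.15 to 0.089. DESeq2 called 2 of the set for blebbistatin in granulosa cells, 1 in the blebbistatin interaction and 2 in the dextran interaction, where edgeR called 0. The cause was not tested. Calls over all genes, leaving out 1 library and then over the other alternatives, ranged from 0 to 115 and 0 to 377 for blebbistatin in granulosa cells (main 1), 0 to 4 and 0 to 42 for dextran, and 0 to 3 and 0 to 214 between the 2. In oocytes other alternatives gave 0 to 16 for blebbistatin and 0 to 4 for dextran. The interactions ranged from 2 to 103 and 3 to 382 (blebbistatin, main 13), and 0 to 91 and 0 to 243 (dextran, main 0). Of 1494 alternatives for 60 gene results, 1479 kept direction and side of the threshold, 2 lost the call, 3 gained it and 10 reversed. The treatment and interaction results among them had not passed in the main fit and had no call to lose, so this total is no measure of robustness. Any alternative without an adjusted p was counted as kept. In oocytes under blebbistatin, Atp5mc3 was 0.031 and Atp5pf 0.048 without oocyte control replicate 2, and Atp5mc3 0.16 without the Inha-rich libraries. Without oocyte dextran replicate 3, Ndufa10 was -0.046 under dextran and -0.062 in the dextran interaction, and Ndufa4 was 1.19 between the treatments (0.099 with voom). Leaving out 1 library, these ranged for blebbistatin in oocytes from -0.76 to 0.031 (Atp5mc3) and from -0.53 to 0.048 (Atp5pf), for Ndufa10 from -0.046 to 0.41 under dextran and from -0.062 to 0.41 in the dextran interaction, and for Ndufa4 from -1.23 to 1.19. In the blebbistatin interaction Atp5mc3 ranged from -0.76 to 0.376. There Atp5mc3 was 0.376 without oocyte control replicate 2 and 0.343 without the Inha-rich libraries, and Ndufa10 0.0059 without the 2 libraries with Lyz2. Deviations of same-numbered libraries had r from -0.22 to 0.39 in granulosa cells (median 0.033) and from -0.21 to 0.26 in oocytes (median 0.070). Differently numbered pairs had medians of -0.012 and -0.047. Whether the numbers pair samples is not stated in the labels, and these values cannot decide it. With the replicate number as a block, 0 of the set were called under treatment and 70 between cell types, and the median between cell types was -1.03. For dextran against control, 2-fold changes simulated in genes at 5 CPM or more were found in 39% of cases in granulosa cells and 66% in oocytes. Smaller changes were not simulated.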
